A study of Mus musculus with 12 samples.

Results

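Malat1, Neat1, Gas5, Snhg1 and Snhg12 are long noncoding RNAs, transcripts that are spliced or stable without coding for a protein. They were chosen by symbol, as abundant nuclear noncoding RNAs and host genes of small nucleolar RNAs, with their levels and earlier results of these libraries known, so their levels are given as a description. All 5 had a line in the deposited table of 45796 genes, and 4 passed the filter on low values, as did 1571 genes in all; it asked for 5 or more as the mean normalized value of 12 libraries. Snhg12 did not pass and was not tested.

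RNA was taken from gamma delta T cells carrying the Vg4 and Vd4 receptor chains, isolated from the lymph nodes that drain the skin of C57BL/6 mice. Gamma delta T cells of this kind are known for fast production of interleukin 17 in inflamed skin. The 4 groups of 3 libraries were NF-kB1-deficient imiquimod, wild-type imiquimod, NF-kB1-deficient sham and wild-type sham, named by the genotype of the mice and the cream they were treated with. Imiquimod, a Toll-like receptor agonist, is used on mouse skin as a model of psoriasis. The Nfkb1 gene encodes the NF-kB precursor p105 and its product p50. The sources used here give neither the kind of Nfkb1 allele nor the age of the mice, the length of treatment or the number of animals behind a library. The labels call the mice, not only these cells, NF-kB1 deficient. Whether each library is a mouse of its own is also not given, and a p-value then covers only how these libraries scatter, which may be technical.

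Depth was low, at an estimated 20507 to 69454 reads on genes per library (median 35383), and summed normalized values ran from 31878 to 40618. A normalized value is the deposited log2 value taken back to the linear scale, and 1 read was worth 0.488 to 1.98 of it. The 3' end kit is designed to read 1 fragment per polyadenylated transcript, so levels are given without correction for length; more than 1 fragment per transcript is possible where an RNA also holds an internal A stretch, as Malat1 does. Nfkb1 stood at 5.41, 6.64 and 5.84 (NF-kB1-deficient imiquimod), 7.34, 21 and 0 (wild-type imiquimod), 8.82, 1.09 and 2.52 (NF-kB1-deficient sham) and 6.71, 4.38 and 1.24 (wild-type sham), with overlapping groups, and a 3' tag outside a deleted part does not check the genotype. The delta chain gene Tcrd was above 0 in all 12 libraries, while Trac, Trbc1 and Trbc2 of the alpha beta receptor were at 0 in all 12. Of the 7 lines on the alpha beta T list 2 were above 0 in some libraries. These were Cd8a and Cd8b1, the latter at up to 17.3, in NF-kB1-deficient sham replicate 1. A receptor line at 0 does not show that the chain was absent, since Trdc was at 0 too. The list of gamma delta and T cell genes (16 of 23 lines above 0) took 0.320% to 0.653% of each library, and Trdc, Trdv4, Tcrg-V4 and Il17a were at 0. No list of markers of another cell type took more than 0.153% of any library.

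Malat1 is retained in the nucleus, where it gathers in speckles rich in splicing factors. Its A-rich tract near the 3' end folds back on U-rich motifs into a triple helix that protects the 3' end after RNase P has cut off a small tRNA-like RNA. Neat1 is the scaffold of paraspeckles and is made as a short polyadenylated form and a long form that ends like Malat1. Gas5, Snhg1 and Snhg12 carry small nucleolar RNAs in their introns, and their spliced remainder is exported and in general read by ribosomes and removed by nonsense-mediated decay. Gas5 is known as an RNA that accumulates in growth-arrested cells, begins with a terminal oligopyrimidine tract, and in human cells can bind the glucocorticoid receptor.

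The 5 genes lie on 3 chromosomes in the RefSeq annotation of GRCm38.p6. Malat1 (Entrez 72289) spans chr19:5795690-5802672 on the minus strand as a single exon of 6983 bases. Neat1 (Entrez 66961) spans chr19:5824708-5845480 on the same strand, and 22035 bases separate it from Malat1. Snhg1 (Entrez 83673) spans chr19:8723487-8726326 on the plus strand, Gas5 (Entrez 14455) spans chr1:161034601-161038539 on the plus strand, and Snhg12 (Entrez 100039864) spans chr4:132308678-132311024 on the plus strand. GENCODE M21 transcripts shown here have 12 exons and 502 bases for Gas5, 10 exons and 605 bases for Snhg1, and 4 exons and 935 bases for Snhg12.

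Because the kit primes on A stretches, the ends of these RNAs decide what is read. The stretch of Malat1 below, chr19:5795982-5796077 of GRCm38 (minus strand, written 5′ to 3′ as bases 6596 to 6691 of transcript Malat1-201), is shown because it holds the stabilising element and the single run of 8 or more A in the transcript. Capitals mark both U-rich motifs, written with T, and the A-rich tract.
Malat1: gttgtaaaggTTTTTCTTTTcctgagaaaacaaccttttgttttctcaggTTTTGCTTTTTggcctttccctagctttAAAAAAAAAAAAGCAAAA
The run of 12 A makes Malat1 one of 5768 of 141767 GENCODE transcripts (4.07%) with a run of 12 or more, against 13.8% with a run of 8 or more. The motif TTTTTCTTTT is in 3.53% of the transcripts and TTTTGCTTTTT in 0.427%, read on the transcript's strand. The deposited values do not tell reads primed at this tract from reads primed at a poly(A) tail.

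The last 40 bases of the transcripts are shown for the poly(A) signal that a 3' end library depends on. Capitals mark AATAAA or ATTAAA, found in the last 40 bases of 32.6% of GENCODE transcripts, and in the long Neat1 form the A-rich end.
Malat1-201: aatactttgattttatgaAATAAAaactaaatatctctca
Neat1-202: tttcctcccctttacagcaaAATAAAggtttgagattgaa
Neat1-201: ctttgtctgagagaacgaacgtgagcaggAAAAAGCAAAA
Gas5-224: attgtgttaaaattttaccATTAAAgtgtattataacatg
Snhg1-211: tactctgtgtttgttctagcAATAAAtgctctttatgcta
Snhg12-205: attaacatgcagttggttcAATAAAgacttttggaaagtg
The signal began 20 to 22 bases from the end in the 5 transcripts that hold one, and was not in these 40 bases of the long Neat1 form of 20771 bases. In Malat1-201 the window is bases 6944 to 6983, past the A-rich tract that ends at base 6691. Malat1 that ends at that tract after the RNase P cut therefore lacks this signal. In genome coordinates of GRCm38 the windows are chr19:5795690-5795729, chr19:5842307-5842346, chr19:5824708-5824747, chr1:161038498-161038537, chr19:8726404-8726443 and chr4:132310985-132311024, in the order printed. Apart from Malat1-201, none of these transcripts held a run of 8 or more A.

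The start sites are shown because snoRNA host genes are known for a pyrimidine tract there. Each line gives 20 bases before and 20 bases from the RefSeq start (GRCm38.p6), with the longest run of C and T that reaches within 10 bases of the start in capitals.
Malat1: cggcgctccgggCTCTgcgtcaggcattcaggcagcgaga
Gas5: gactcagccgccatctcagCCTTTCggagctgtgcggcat
Snhg1: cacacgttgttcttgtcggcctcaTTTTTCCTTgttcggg
Snhg12: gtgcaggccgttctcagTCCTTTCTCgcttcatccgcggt
Gas5 has 2 RefSeq starts, and only the one taken as shared by most of its spliced transcripts is shown and measured. The run had 4 bases in Malat1, 6 in Gas5 and 9 in both Snhg1 and Snhg12. A run at least as long was in 65.1%, 30% and 9.75% of 32851 RefSeq promoters at the lengths of Malat1, of Gas5 and of both Snhg genes. These windows are chr19:5802653-5802692 (minus strand), chr1:161035146-161035185, chr19:8723467-8723506 and chr4:132308658-132308697 (plus strand). The NF-kB consensus was searched by name on both strands of longer promoter windows, from 250 bases before the start to 50 after it. It had no match in the 5 promoter windows of Malat1, Gas5 (which has 2), Snhg1 and Snhg12, and a match in 4.51% of all promoters. At that share no match is likely in 5 windows anyway. Neat1 had no promoter entry and was not searched.

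Malat1 was the most abundant long noncoding RNA in this table and the second most abundant line of all. Its mean over 12 libraries was 918.8, behind 1119 for the ribosomal RNA line Rn18s-rs5 and ahead of 358.7 for LOC100503946, the third line, and 235.6 for the actin-binding Tmsb4x. It had 859, 1075 and 742 in NF-kB1-deficient imiquimod libraries and 229, 363 and 381 in wild-type imiquimod libraries. It had 1267, 1196 and 1193 in NF-kB1-deficient sham libraries and 1417, 1058 and 1246 in wild-type sham libraries. The 3 wild-type imiquimod libraries were lowest, and the highest of them was below the lowest of every other group. The 2 sham groups overlapped, and the NF-kB1-deficient imiquimod libraries lay between both sham groups and the wild-type imiquimod group, with 1 of them above the lowest wild-type sham library. An estimated 192 to 345 reads stand behind each wild-type imiquimod value and 948 to 2168 behind each of the other 9.

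**Figure D1:**
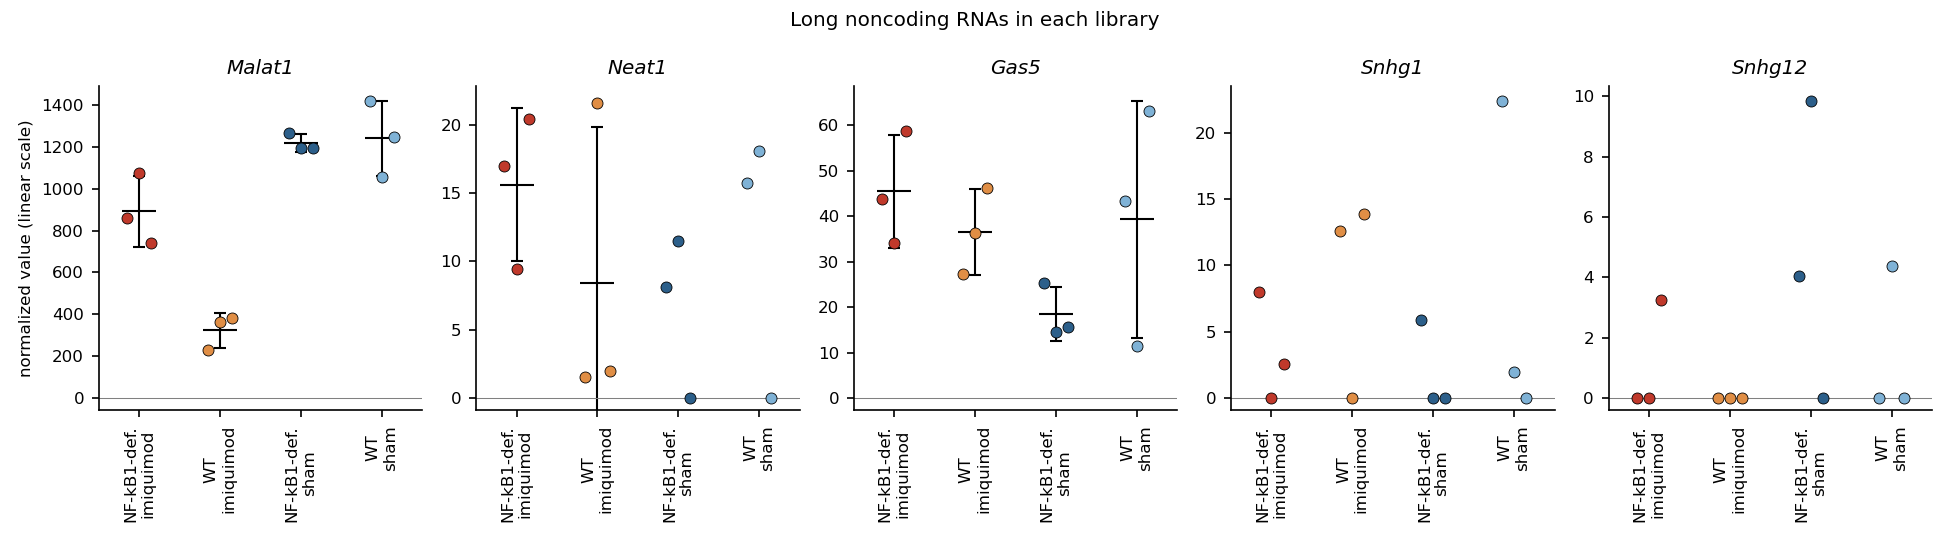
Normalized value (linear scale) of each long noncoding RNA in each library, 1 panel per gene with its own axis; points are libraries, and bars are mean ± SD (n = 3), drawn where no library of the group is listed at 0. Wild-type imiquimod libraries hold 229 to 381 of Malat1, under all 9 other libraries, while the groups of Neat1, Snhg1 and Snhg12 overlap throughout.

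Group means of Malat1 were 892 ± 169 in NF-kB1-deficient imiquimod libraries, 325 ± 83.0 in wild-type imiquimod libraries, 1218 ± 41.9 in NF-kB1-deficient sham libraries and 1240 ± 179 in wild-type sham libraries (SD, n = 3 each). In order from the top, wild-type sham and NF-kB1-deficient sham differed by less than their pooled SD of 130. The next steps down, to NF-kB1-deficient imiquimod and then to wild-type imiquimod, exceeded their pooled SDs of 123 and 133. As a share of the library's summed value, Malat1 took 2.71% ± 0.572 in NF-kB1-deficient imiquimod, 0.844% ± 0.192 in wild-type imiquimod, 3.63% ± 0.128 in NF-kB1-deficient sham and 3.62% ± 0.514 in wild-type sham libraries (SD, n = 3 each). Fewer cells that hold much Malat1 and less Malat1 per cell cannot be told apart in pooled cells.

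The first comparison asks how imiquimod cream changed these RNAs in wild-type cells. Malat1 fell by 1.96 on the log2 scale in wild-type imiquimod against wild-type sham libraries (SE 0.18, 95% confidence interval -2.30 to -1.61, limma adjusted p 2.59e-18), which is 3.88-fold. Malat1 was chosen with its differences in all 5 comparisons known, so the tests describe its place among the genes and are no independent support. It was the gene with the lowest p of 1571, and 3.25% of them were called (51 genes at an adjusted p under 0.05, 1.59% lower). The 26 higher and 25 lower calls became 19 and 29 when all libraries were set to equal totals, and 47 and 25 with a pseudocount of 10. Its groups did not overlap, which was so for 21.5% of the genes. Of the 4 tested long noncoding RNAs named here, Malat1 was the only one called. Among the 13 genes with a mean of at least 100, Malat1 had the lowest log2 fold change, with the MHC class I gene H2-K1 next at -1.32 and the chaperone gene Hsp90ab1 highest at 1.58. With the trend setting, the spread toward which a gene is drawn follows its level. Without trend and robust settings, genes of all levels are drawn toward a common spread. The same log2 fold change of -1.96 then had an SE of 0.63 and a limma adjusted p of 0.14, and was not called. The scatter of Malat1 alone gives an SE of 0.217.

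Neat1, Gas5 and Snhg1 gave no call between wild-type imiquimod and wild-type sham libraries. Neat1 had 1.57, 21.6 and 1.98 in wild-type imiquimod libraries, against 15.7, 18.1 and 0 in wild-type sham libraries. Each of these groups had 1 library far from the others, and the log2 fold change was -0.29 (SE 1.12, 95% confidence interval -2.51 to 1.93, limma adjusted p 0.908). Gas5 had 27.2, 36.3 and 46.1 in wild-type imiquimod libraries, against 43.4, 11.5 and 63.1 in wild-type sham libraries. The sham libraries of Gas5 spread wider than the imiquimod ones and enclosed them, and the log2 fold change was 0.16 (SE 0.54, 95% confidence interval -0.90 to 1.22, limma adjusted p 0.894). Snhg1 had 12.6, 0 and 13.9 in wild-type imiquimod libraries, against 22.4, 1.95 and 0 in wild-type sham libraries, and its interval of -2.29 to 3.33 leaves the direction unknown. Snhg12 was listed at 0 in the 3 wild-type imiquimod libraries and at 0, 4.39 and 0 in the wild-type sham libraries. A change in Neat1, Gas5 or Snhg1 within these intervals cannot be told from no change in these libraries. Snhg12 was not tested, and a listed 0 can stand for 1 or 2 reads in some libraries.

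The second comparison asks the same of NF-kB1-deficient cells. Malat1 had a log2 fold change of -0.47 ± 0.18 between NF-kB1-deficient imiquimod and NF-kB1-deficient sham libraries (SE, 95% confidence interval -0.81 to -0.12, limma p 0.00874 unadjusted and 0.956 adjusted over 1571 genes). All 3 imiquimod libraries were below all 3 sham libraries. Groups without overlap, in either direction, were found for 11.7% of the genes tested. By limma no gene was called here (0%), and 53 genes had an unadjusted p under 0.05. Gas5 had 43.8, 34.0 and 58.7 in NF-kB1-deficient imiquimod libraries, against 25.4, 14.6 and 15.6 in NF-kB1-deficient sham libraries. Its imiquimod libraries were all above its sham libraries, with a log2 fold change of 1.26 ± 0.54 (SE, 95% confidence interval 0.20 to 2.32, limma p 0.0198 unadjusted and 0.996 adjusted), which is no call. Of the 4 tested members, Malat1 and Gas5 thus had groups without overlap, in opposite directions.

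Neat1 had 17, 9.43 and 20.4 in NF-kB1-deficient imiquimod libraries, against 8.09, 11.5 and 0 in NF-kB1-deficient sham libraries, and its log2 difference was 1.72 (SE 1.12, limma adjusted p 0.996). Snhg1 had 8.01, 0 and 2.59 in NF-kB1-deficient imiquimod libraries, against 5.88, 0 and 0 in NF-kB1-deficient sham libraries. Snhg12 had 0, 0 and 3.24 in NF-kB1-deficient imiquimod libraries, against 4.04, 9.85 and 0 in NF-kB1-deficient sham libraries. These groups overlapped in all 3 RNAs.

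The third and the fourth comparison ask what loss of NF-kB1 changed under each cream. They share libraries with the first and the second, so their values are not independent of those above. Under sham cream Malat1 had a log2 fold change of -0.02 ± 0.18 between NF-kB1-deficient and wild-type libraries (SE, 95% confidence interval -0.36 to 0.33, limma adjusted p 0.997). By limma 0 genes (0%) were called in this comparison and 96 had an unadjusted p under 0.05. Groups without overlap were found for 9.36% of genes and for no member. The log2 fold changes of Gas5, Neat1 and Snhg1 were -0.79 ± 0.54, -0.49 ± 1.12 and -1.11 ± 1.42 (SE), with limma adjusted p of 0.947, 0.979 and 0.962.

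Under imiquimod cream Malat1 was higher in NF-kB1-deficient than in wild-type libraries, by 1.47 ± 0.18 on the log2 scale (SE, 95% confidence interval 1.13 to 1.82, limma adjusted p 4.42e-11), or 2.78-fold. The groups did not overlap, which was so for 21.1% of genes, and 1.78% of genes were called (28 genes, 1.27% higher). The 20 higher and 8 lower calls became 25 and 5 with equal totals, but 11 and 17 with a pseudocount of 10 and 5 and 12 from the 6 imiquimod libraries alone. Without trend and robust settings the adjusted p was 0.323. The other members gave no call: Neat1 1.51 ± 1.12, Gas5 0.31 ± 0.54 and Snhg1 -0.88 ± 1.42 on the log2 scale (SE), with limma adjusted p of 0.586, 0.837 and 0.828. All 3 NF-kB1-deficient imiquimod libraries held more Neat1 than 2 of the 3 wild-type imiquimod libraries, while the remaining wild-type library, at 21.6, was the highest of all 12.

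The response of Malat1 to imiquimod differed between genotypes. The NF-kB1-deficient response minus the wild-type response was 1.49 ± 0.25 on the log2 scale (SE, 95% confidence interval 1.0 to 1.98, limma adjusted p 2.09e-05), in a test that called 7 genes (0.446%, and 0.191% higher). Without trend and robust settings the adjusted p was 0.633. The same difference was 2.01 ± 1.59 for Neat1, 1.10 ± 0.76 for Gas5 and 0.23 ± 2.01 for Snhg1 (SE), with limma adjusted p of 0.698, 0.637 and 0.977. Malat1's own residual SD over the 4 groups was 0.265 on the log2 scale, which gives an SE of 0.217 for a difference of 2 groups without any sharing among genes.

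**Figure D2:**
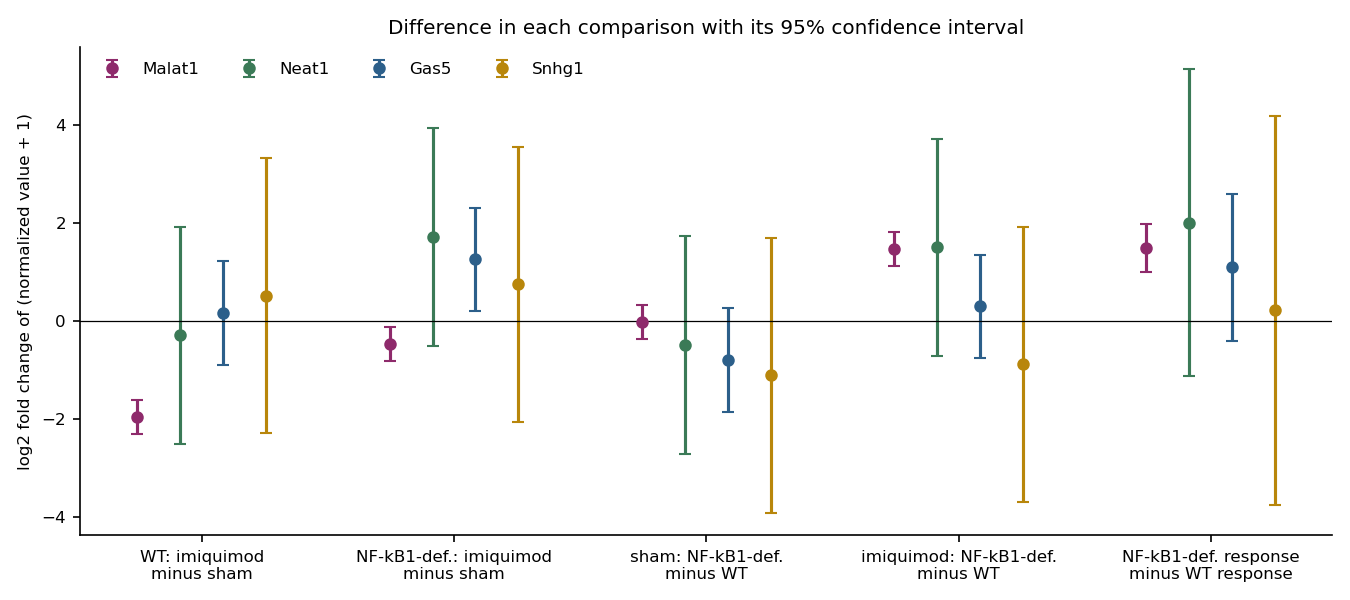
Log2 fold change of (normalized value + 1) in 4 comparisons and in the difference between both imiquimod responses, with 95% confidence intervals from limma, for the 4 tested long noncoding RNAs. The intervals of Malat1 are the narrowest in each comparison and run from -2.30 to -1.61 in wild-type cells, while those of Neat1 and Snhg1 cross 0 throughout.

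Other lines that could move with Malat1 were set beside it. Rn18s-rs5 had 888, 1240 and 1130 in NF-kB1-deficient imiquimod, 1513, 1182 and 1404 in wild-type imiquimod, 874, 957 and 1040 in NF-kB1-deficient sham and 649, 1231 and 1314 in wild-type sham libraries. Wild-type imiquimod and wild-type sham libraries overlapped for this line. Actb had 164, 201 and 213 in wild-type imiquimod libraries, against 126, 142 and 122 in wild-type sham libraries, with no overlap and in the order opposite to Malat1. B and plasma cell markers (6 of 12 lines above 0) took 0.00671% to 0.0655% in NF-kB1-deficient imiquimod, 0.0171% to 0.0583% in wild-type imiquimod, 0% in NF-kB1-deficient sham and 0% to 0.0179% in wild-type sham libraries. Keratinocyte, stromal and endothelial markers (5 of 13 lines above 0, with Krt5, Krt14, Pdpn and Cdh5 among the 8 at 0) took 0% to 0.00447% in NF-kB1-deficient imiquimod, 0% to 0.00488% in wild-type imiquimod, 0.0105% to 0.0221% in NF-kB1-deficient sham and 0.00504% to 0.0608% in wild-type sham libraries. These shares were lower under imiquimod in both genotypes, without overlap and in the direction of Malat1, but they rest on very few reads. The closest wild-type libraries held Pecam1 alone, at 1.71 in sham replicate 2 and 1.98 in imiquimod replicate 3. The highest wild-type sham share, in replicate 3, was mainly Krt10 at 13, which was at 0 in every other library. The gamma delta and T cell genes took 0.484% to 0.567% of the NF-kB1-deficient imiquimod libraries, against 0.327% to 0.432% of the wild-type imiquimod libraries, without overlap. The part of these lists in the Malat1 result was not tested. Neutrophil and mast cell markers were at 0 in all 12 libraries.

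Malat1 made up most of the long noncoding RNA in each group but wild-type imiquimod. By RefSeq biotype, 11127 lines were long noncoding RNA genes, 308 of them above 0 in any library and 17 past the filter. Malat1 took 66.8%, 71.8% and 59.2% of their summed value in NF-kB1-deficient imiquimod libraries, against 35.5%, 45.1% and 48.9% in wild-type imiquimod libraries. It took 77.5%, 75.7% and 73.3% in NF-kB1-deficient sham libraries, against 75.0%, 73.7% and 77.1% in wild-type sham libraries. Wild-type imiquimod stood apart from the other groups in this share too.

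The sum of all other long noncoding RNAs overlapped between the 2 imiquimod groups and between creams within each genotype. It was 427, 422 and 510 in NF-kB1-deficient imiquimod, 417, 442 and 399 in wild-type imiquimod, 369, 384 and 434 in NF-kB1-deficient sham and 471, 378 and 369 in wild-type sham libraries. As a share of the library it was 1.27% to 1.54% in NF-kB1-deficient imiquimod, 0.982% to 1.18% in wild-type imiquimod, 1.06% to 1.27% in NF-kB1-deficient sham and 1.06% to 1.38% in wild-type sham libraries, so that as a share the 2 imiquimod groups did not overlap. A share divides by the library's summed value, which was highest in the wild-type imiquimod libraries. It was 36846, 37487 and 40618 there, against at most 34855 in any other library. With Malat1 included, long noncoding RNA took 1.75% to 2.15% of the wild-type imiquimod libraries, against 4.24% to 5.53% of the wild-type sham libraries.

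**Figure D3:**
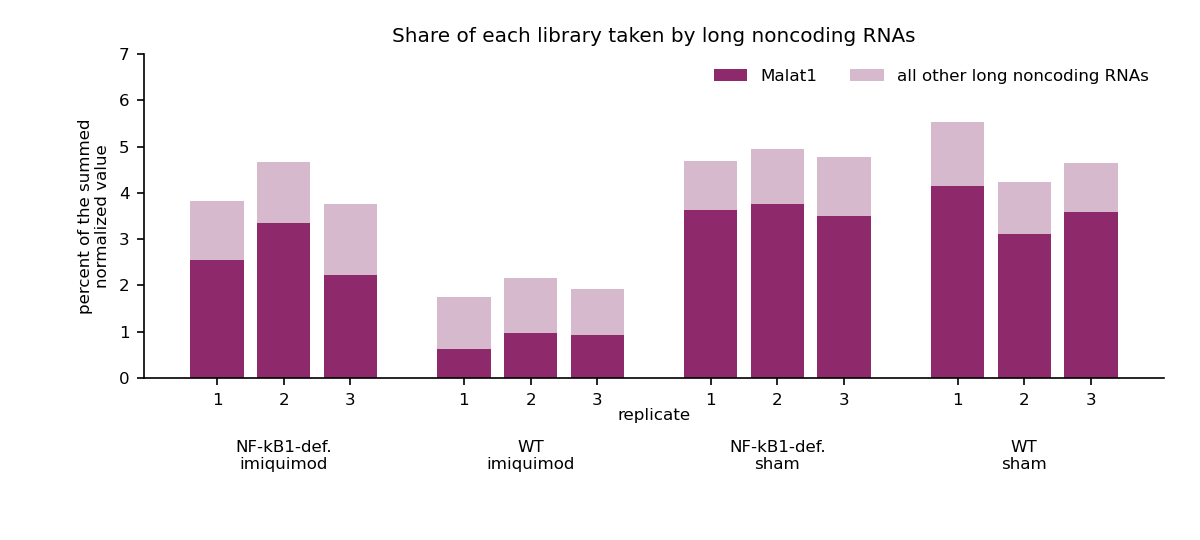
Percent of each library's summed normalized value taken by Malat1 (dark) and by all other long noncoding RNAs together (light), 1 bar per library. Malat1 takes 0.623% to 0.969% of the wild-type imiquimod libraries and 2.23% or more of every other library, while the light parts take 0.982% to 1.54% of all 12 libraries.

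Of the 17 tested long noncoding RNAs Malat1 was the only one called in any comparison. The 13 that are not members had a median log2 fold change of -0.61 between wild-type imiquimod and wild-type sham libraries, beside -0.07 over all 1571 genes, and 0.84 between NF-kB1-deficient and wild-type imiquimod libraries, beside 0.13. Of the 13, 6 were higher and 7 lower in wild-type imiquimod than in wild-type sham libraries. Between NF-kB1-deficient and wild-type imiquimod libraries 9 were higher and 4 lower. In both comparisons 0 of the 13 were called, beside 3.25% and 1.78% of all genes. A shift of the 13 as a set was not tested.

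Kcnq1ot1, the antisense RNA that silences an imprinted cluster, had 26.9, 19.2 and 38.1 in NF-kB1-deficient imiquimod libraries, against 4.19, 11.6 and 3.96 in wild-type imiquimod libraries. It had 14.5, 27.9 and 9.44 in NF-kB1-deficient sham libraries, against 28.3, 20.5 and 20.5 in wild-type sham libraries. Its wild-type imiquimod libraries were thus below its wild-type sham libraries and below its NF-kB1-deficient imiquimod libraries, without a call (log2 fold changes -1.80 ± 0.75 and 2.03 ± 0.75, SE, limma adjusted p 0.151 and 0.158).

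The snoRNA host Snhg3 lay the other way. It had 51.9, 23.7 and 48.5 in wild-type imiquimod libraries, against 0, 3.90 and 12.4 in wild-type sham libraries. These groups did not overlap, and the log2 fold change was 3.31 (SE 1.11, limma adjusted p 0.0762, and 0.00689 to 0.458 over the alternatives). Snhg3 had 9.51, 5.59 and 11 in NF-kB1-deficient imiquimod libraries, against 2.21, 0 and 0 in NF-kB1-deficient sham libraries.

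**Figure D4:**
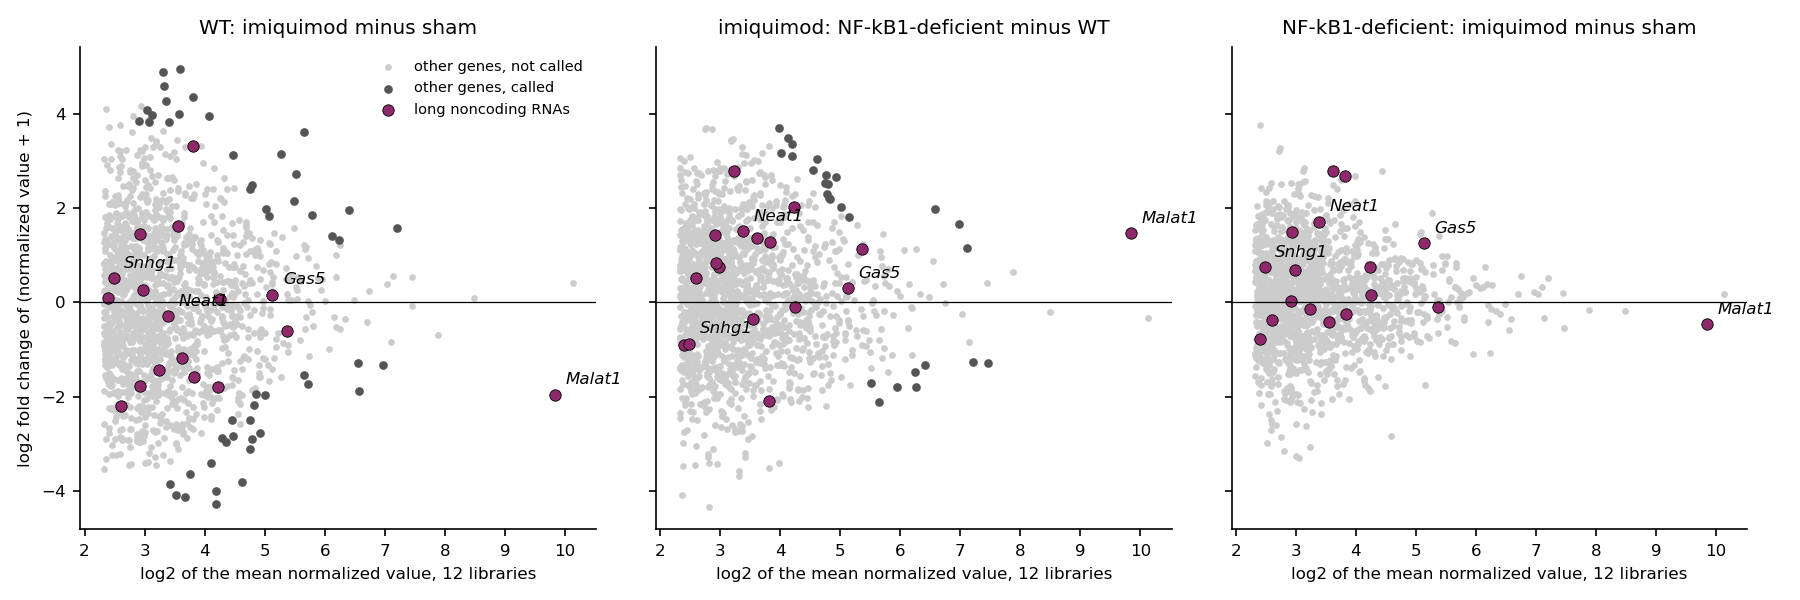
Log2 fold change of (normalized value + 1) against log2 of the mean normalized value for the 1571 genes tested, in 3 comparisons, with the 17 long noncoding RNAs as large points. Malat1 stands alone at the far right, at -1.96 in wild-type cells, 1.47 between genotypes under imiquimod and -0.47 in NF-kB1-deficient cells.

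The other long noncoding RNAs and snoRNA hosts on a list of 71 symbols had 73 lines, 34 of them above 0 and 6 tested: Snhg3, Kcnq1ot1, Snhg8, Zfas1, AW112010 and 2900097C17Rik. By limma 0 of the 6 were called in any of the 5 comparisons, in which 0% to 3.25% of all genes were called. Snhg8 was the most abundant of them, with a mean of 41.3 over 12 libraries, above the 35.0 of Gas5. Zfas1, another snoRNA host, had 19.3, 13.3 and 21.4 in NF-kB1-deficient imiquimod libraries, against 0, 18.6 and 0 in NF-kB1-deficient sham libraries, and its log2 difference was 2.79 (SE 1.06, limma adjusted p 0.956).

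The small nucleolar RNAs inside the host genes were scarcely seen. GENCODE M21 places 9 separate snoRNA loci in Gas5, 8 in Snhg1 and 4 in Snhg12. Of their 23 entries, 7 had a line under the same symbol and 1 was above 0: Snord47 in Gas5, in 1 library, at 3.54. Mature snoRNAs carry no poly(A) tail, which the kit primes on.

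Proteins that the members work with were counted from lists chosen for their roles. Over all genes 3.25% were called between wild-type imiquimod and wild-type sham libraries, so few or no calls are likely in lists of this size. Of 21 nuclear speckle proteins, which share the compartment of Malat1, 18 were tested and 0 were called between wild-type imiquimod and wild-type sham libraries (median log2 fold change -0.07, as over all genes). The splicing factor Srsf5, with a mean of 53.1 the most abundant of them, stood at -1.14 ± 0.43 there (log2, SE, limma adjusted p 0.119). In the difference between both imiquimod responses 1 of the 18 was called, beside 0.446% of all genes. It was the splicing regulator Rbm25 at 3.12 ± 0.78 (SE, limma adjusted p 0.0214), a call held in 10 of 21 alternatives (adjusted p 0.00464 to 0.758). Rbm25 had 40.1, 44.4 and 44.6 in NF-kB1-deficient imiquimod, 17.9, 33.2 and 7.92 in wild-type imiquimod, 13.2, 18.7 and 13.8 in NF-kB1-deficient sham and 54.2, 55.5 and 58.4 in wild-type sham libraries. Rbm25 was higher under imiquimod in NF-kB1-deficient and lower in wild-type libraries, without overlap in either genotype. Neither change was called (limma adjusted p 0.956 and 0.071), and groups without overlap were found for 11.7% and 21.5% of all genes.

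Of 18 paraspeckle proteins, partners of Neat1, 13 were tested. In wild-type imiquimod against wild-type sham libraries 1 was called, and higher, beside 3.25% of all genes called in either direction. It was the RNA-binding Hnrnpr (limma adjusted p 0.0485). The median log2 fold change of the 13 was 1.44, beside -0.07 over all genes. Hnrnpr had 18.9, 6.32 and 19.8 in wild-type imiquimod libraries, while each wild-type sham library lists it at 0, so no fold is given. This call held in 4 of 21 alternatives.

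Of 14 genes of the glucocorticoid receptor, its chaperones and its targets, 6 were tested. Hsp90ab1, a chaperone of the receptor and of many other proteins, rose by 1.58 ± 0.31 on the log2 scale in wild-type imiquimod against wild-type sham libraries (SE, limma adjusted p 0.000175). It fell by 1.26 ± 0.31 in NF-kB1-deficient against wild-type imiquimod libraries (SE, limma adjusted p 0.0124). Without trend and robust settings the adjusted p of these calls was 0.24 and 0.444. Of the 6, 3 had a log2 fold change above 0 and 3 below it in wild-type imiquimod against wild-type sham libraries. The receptor's targets Fkbp5, Tsc22d3 and Ddit4 gave no call there, with Fkbp5 higher and both Tsc22d3 and Ddit4 lower. Groups without overlap were found for 21.5% of all genes in this comparison. Fkbp5 had 11.5, 7.37 and 22.8 in wild-type imiquimod libraries, against 0, 4.39 and 3.11 in wild-type sham libraries, without overlap, and stood at 2.27 ± 0.97 (log2, SE, limma adjusted p 0.156). Tsc22d3 had 0, 0 and 2.97 in wild-type imiquimod libraries, against 5.03, 4.88 and 10.6 in wild-type sham libraries, also without overlap, and was at -2.23 ± 1.12 (log2, SE, limma adjusted p 0.245). Ddit4 had 2.05, 5.79 and 0 in wild-type imiquimod libraries, against 13.4, 4.88 and 26.7 in wild-type sham libraries. Its groups overlapped, and it was at -2.27 ± 1.14 (log2, SE, limma adjusted p 0.248). Of 18 snoRNA-protein and assembly factors only Nop58, a core protein of box C/D particles, and the pseudouridine synthase Dkc1 were tested, and neither was called. Nop58 stood at 2.42 ± 0.87 on the log2 scale in wild-type imiquimod against wild-type sham libraries (SE, limma adjusted p 0.103). Of 19 nonsense-mediated decay factors 5 were tested and 0 were called in any comparison, beside 0% to 3.25% of all genes. Of 16 factors that cut or bind the 3' end of Malat1, 15 had a line, 13 were above 0 and 0 passed the filter.

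Of 25 genes beside the members on their chromosomes 3 were tested, and none was called by limma in any comparison, beside 0% to 3.25% of all genes. Frmd8, next to Malat1 and Neat1, and Rcc1 and Snhg3, near Snhg12, were these 3.

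The genes whose pattern over the 12 libraries was most like that of Malat1 were found by the root mean square difference of centred log2 values, over 494 other genes above 0 in all libraries. They were Tcrd at 0.346, Shisa5 at 0.419, the cytokine receptor kinase Jak1 at 0.422, the membrane protein gene Ms4a4b at 0.463 and H2-K1 at 0.501, where the profile of Malat1 itself had a root mean square of 0.828. Tcrd had 62.8, 53.5 and 58.9 in NF-kB1-deficient imiquimod, 14.1, 30.5 and 19.8 in wild-type imiquimod, 72.8, 66.1 and 40.3 in NF-kB1-deficient sham and 65.8, 68.7 and 76.8 in wild-type sham libraries. Like Malat1, Tcrd was lowest in the 3 wild-type imiquimod libraries, which its choice by likeness to Malat1 makes likely beforehand. Nearest to the profile of Malat1 with its sign turned were Gm12338 at 0.449, the nucleolar protein gene Ncl at 0.456, the mitochondrial phosphate carrier Slc25a3 at 0.487, Gm12715 at 0.496 and the poly(A)-binding protein gene Pabpc1 at 0.505. Gm12338 and Gm12715 are pseudogenes in RefSeq, so their reads can belong to a near-identical copy.

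**Figure D5:**
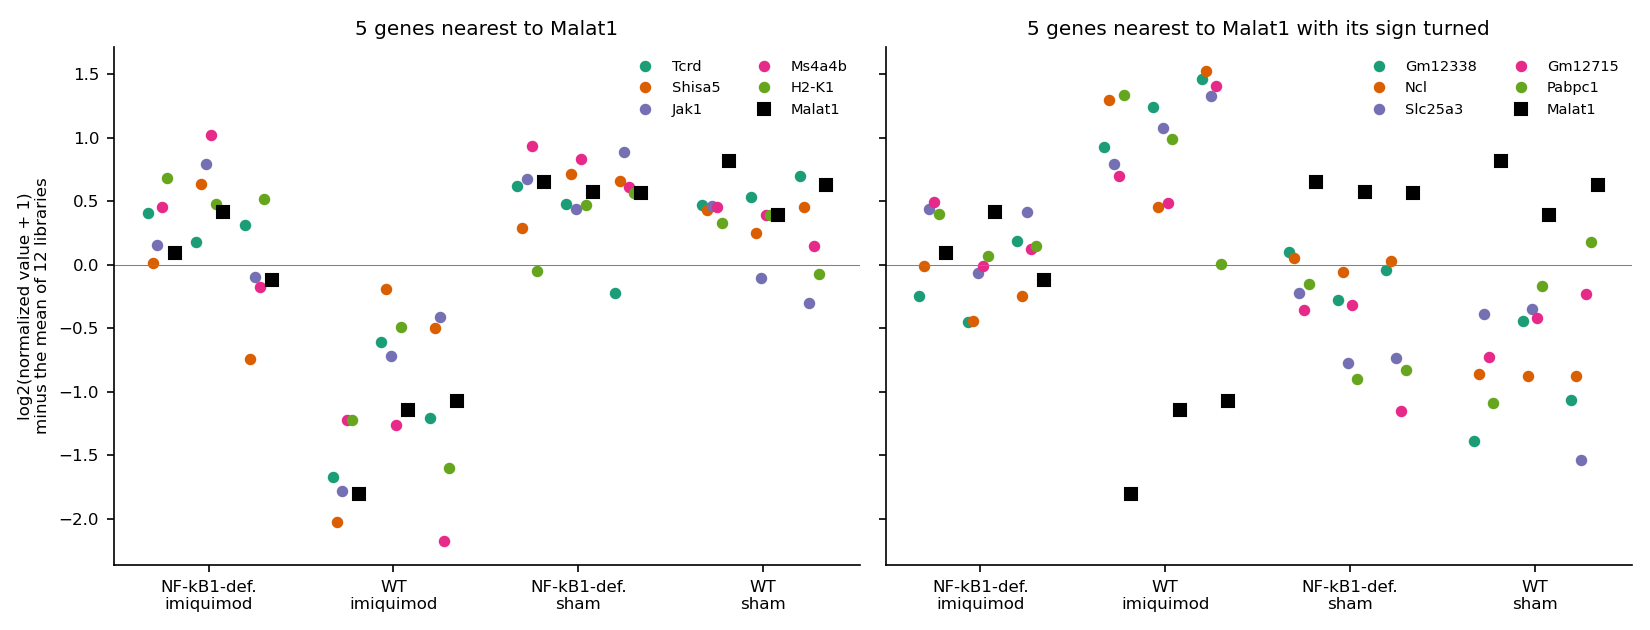
Log2(normalized value + 1) minus the gene's mean over 12 libraries, 1 point per library and gene, for the 5 genes nearest to Malat1 (left) and the 5 nearest to Malat1 with its sign turned (right), with Malat1 as black squares. On the left all 6 genes are below 0 in the wild-type imiquimod libraries, and on the right the 5 other genes are above 0 there. The genes were picked by this pattern, so these positions are no separate result.

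For Gas5, genes with a near profile included Gm5148 at 0.506 and Rpl37rt, named for a ribosomal protein, at 0.596, where the profile of Gas5 had a root mean square of 0.741. Neat1, Snhg1 and Snhg12 were at 0 in 2, 5 and 8 of the 12 libraries and were left out of this search.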

How the data were processed

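The authors deposited 1 table of log2 normalized read counts for 12 libraries, from RNA taken up in Trizol and read with QuantSeq 3' FWD libraries, per the labels' protocols. The submitters' processing notes name mm10 as the build. The sources used here name no aligner, counter or normalization tool. Values were taken back to the linear scale, a deposited 0 staying 0, and no linear value lay between 0 and 1. Columns were matched to samples by title, none was left unused, and 0 of 66 library pairs were identical. Steps in the low values gave the worth of 1 read; 71% to 80.2% of values under 20 reads lay within 0.01 of a whole read, too few for a count test, so depths are estimates.

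Tests used limma 3.58.1 in R 4.3.3 on log2(normalized value + 1), which understates the change of low genes, for the 1571 genes with a mean of at least 5. All 12 libraries entered 1 fit with trend and robust settings (8 residual and, at the median, 145 prior degrees of freedom). Benjamini-Hochberg adjustment ran over all 1571 genes in each of 5 comparisons, and a call is an adjusted p under 0.05. The script was tested on simulated data. Long noncoding RNAs were taken from RefSeq biotypes by Entrez ID (44528 of 45796 matched), promoters from RefSeq GRCm38.p6 (4 of 5 members matched) and transcripts from GENCODE M21. Members and lists were chosen with earlier results of these data known. Named genes are the 5 members, up to 6 of each list (called genes, then the highest means), tested neighbours, and the 5 genes most like and most opposed to Malat1 or 3 most like another member above 0 in all libraries. Deviations from the group means correlated above 0.1 in 0 of 18 pairs of libraries with equal replicate numbers (median 0.0164). The same was so for 0 of 36 pairs with unequal numbers (median -0.00386). Most genes had few reads, which keeps such correlations near 0, so this check cannot exclude that the numbers pair libraries. Alternatives were pseudocounts of 0.1 and 10, no filter or a mean of 20, equal library totals, no trend or robust, a replicate block, only the 6 libraries compared, and leaving out each library. Equal totals without Rn18s-rs5 were chosen after seeing the data. Some genes that these rules name are not reported here.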

Additional observations from a re-analysis of the deposited data

Results flagged for a closer look

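The imiquimod response of Malat1 stood out in the test of the difference between genotypes, for which Malat1 had been chosen with its values known, so the test is no independent support. The NF-kB1-deficient response minus the wild-type response was 1.49 on the log2 scale (limma adjusted p 2.09e-05, and 0.633 without trend and robust settings, where it is no call). Malat1 was lower in 3 of 3 imiquimod libraries in both genotypes, with log2 fold changes of -0.47 in NF-kB1-deficient and -1.96 in wild-type cells.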

How the results depend on the processing

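Malat1 stayed called, in the same direction, under every alternative but 1 for wild-type imiquimod against wild-type sham, for both genotypes under imiquimod, and for the difference of responses. Without trend or robust settings these log2 fold changes of -1.96, 1.47 and 1.49 missed the threshold. Between the sham groups Malat1 reversed to 0.01 with equal totals, with or without the 5 members or Rn18s-rs5 in them, and its mean in NF-kB1-deficient sham libraries moved to 1262 and 1274 (equal totals, and without members). Neat1 reversed to 0.47 with a pseudocount of 0.1, and Gas5 to -0.03 with equal totals without members, both in wild-type imiquimod against wild-type sham.

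Leaving out 1 library at a time, log2 fold changes that changed sign ranged from -0.13 to 0.08 (Malat1), -1.88 to 0.64 (Neat1) and -2.12 to 0.15 (Snhg1) between sham groups. In wild-type imiquimod against wild-type sham they ranged from -1.68 to 0.45 (Neat1), -0.54 to 0.64 (Gas5) and -0.50 to 1.79 (Snhg1). Snhg1 also ranged from -0.00 to 1.67 in NF-kB1-deficient cells and from -1.05 to 1.24 in the difference of responses. Counts of called genes ranged from 23 to 72 in wild-type imiquimod against sham (24 on leaving out wild-type imiquimod replicate 1 and 23 on leaving out wild-type sham replicate 3). They ranged from 0 to 0 in NF-kB1-deficient cells, and from 0 to 1 between sham groups (1 without NF-kB1-deficient sham replicate 1). Between genotypes under imiquimod they ranged from 4 to 42, with 10, 4 and 9 without NF-kB1-deficient imiquimod replicates 1, 2 and 3, and 18 without wild-type imiquimod replicate 1 or NF-kB1-deficient sham replicate 1. For the difference of responses they ranged from 2 to 12, with 2 without NF-kB1-deficient sham replicate 3 or wild-type imiquimod replicate 3, 4 without wild-type sham replicate 1 or NF-kB1-deficient imiquimod replicate 2, and 12 without wild-type imiquimod replicate 2.

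In wild-type imiquimod against wild-type sham 51 genes were called, against 26 with a pseudocount of 0.1, 11 without a filter, 18 without trend or robust and 28 from the 6 libraries compared. In NF-kB1-deficient cells 1 gene was called from the 6 libraries. Between genotypes under imiquimod 28 were called, against 18, 3, 0 and 17 under the same settings. For the difference of responses 7 were called, against 1 without a filter, 13 at a mean of 20 and 0 without trend or robust. Equal totals moved the median of all genes in wild-type imiquimod against sham to -0.19, from -0.07, and the split of calls to 19 higher and 29 lower, from 26 and 25. A pseudocount of 10 moved it to 47 and 25, and the 6 libraries alone to 19 and 9. Between genotypes under imiquimod the split of 20 and 8 moved to 25 and 5 with equal totals, 11 and 17 with a pseudocount of 10 and 5 and 12 from the 6 libraries. The causes were not tested.

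With the replicate block 55, 0, 0, 32 and 7 genes were called, and the block changed no call of a member. Leaving out 1 library turned the direction of Neat1 in 2 of 5 comparisons and of Snhg1 in 4 of 5, and Snhg12 was too low to be tested.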
